A study of Mus musculus with 27 samples.

Results

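The 9 genes Mbp, Mog, Mag, Mobp, Cnp, Mal, Cldn11, Opalin and Ugt8a encode proteins of the myelin sheath, or the enzyme that makes its main glycolipid, and were described in whole-tissue RNA of the mouse frontal cortex and striatum. They were chosen by name for their place in myelin, and each matched 1 of the 52636 gene identifiers of the 2 count tables, which are the same for both regions. All 9 had at least 1 CPM (a counts-per-million value, that is, counts scaled to the size of the library) in every library and so entered every test. Adult mice homozygous for the loss of an intergenic enhancer near Igf2 (Igf2enh-/-, labelled KO) were compared with wild-type (WT) mice of both sexes, on the 129S1 background and at about 2.5 months of age. The deletion is a 4.9 kb fragment between H19 and Igf2 that was removed by gene targeting in ES cells, and it left 1 loxP site once the selection cassette had been excised by a cross to an Hprt-CRE female. RNA-seq libraries after ribosomal RNA depletion came from 6 WT and 6 KO frontal cortices, with 3 females and 3 males in each group. Striatal libraries came from 7 WT (3 females, 4 males) and 8 KO mice (4 females, 4 males), and the labels do not say which cortex and striatum came from the same mouse. Libraries are called here by the number in their label.

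In the brain, oligodendrocytes wrap axons in many turns of membrane, and the compacted spiral insulates the axon between the nodes of Ranvier. Myelinated fibres are gathered in white matter, such as the corpus callosum below the cortex and the fibre bundles that cross the striatum, and are sparser in cortical grey matter. Precursor cells leave the cell cycle, pass through a newly formed stage and then switch on the genes for myelin proteins and lipids under Sox10 and Myrf, a transcription factor of the maturing cell. Of the 9 products, Mbp holds the cytoplasmic faces of the membrane together and Mobp is another small basic protein of compact myelin. Mal is a proteolipid of lipid rafts and Cldn11 forms the tight junctions between the turns. Cnp is an enzyme of the cytoplasmic channels of myelin, Mag an adhesion molecule facing the axon, Mog a glycoprotein of the outermost surface, and Opalin a transmembrane glycoprotein of oligodendrocytes. Ugt8a makes galactosylceramide, the main galactolipid of myelin.

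The start regions of 3 members are shown because they differ in the short words that proteins of the oligodendrocyte lineage are known to recognise, although the genes moved together over libraries, as described below. Each sequence runs from 250 bases before to 50 bases after the annotated start (RefSeq, GRCm38.p6) in the direction of the gene. Capitals mark 4 words searched on both strands. Myrf is known to bind CTGGCAC, which reads GTGCCAG when it lies on the other strand, and the variant CTGGTAC. Sox proteins bind ACAAAG, which reads CTTTGT on the other strand, and the E-box searched was CAGCTG, which is its own complement. Mobp lies at chr9:120149492-120149791 (plus strand), Cnp at chr11:100574689-100574988 (plus strand) and Opalin at chr19:41077064-41077363 (minus strand).
Mobp: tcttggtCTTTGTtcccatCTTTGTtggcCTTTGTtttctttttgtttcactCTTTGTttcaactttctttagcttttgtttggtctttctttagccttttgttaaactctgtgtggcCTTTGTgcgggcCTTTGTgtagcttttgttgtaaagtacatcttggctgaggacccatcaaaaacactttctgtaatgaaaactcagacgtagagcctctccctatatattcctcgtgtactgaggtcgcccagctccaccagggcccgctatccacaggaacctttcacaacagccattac
Cnp: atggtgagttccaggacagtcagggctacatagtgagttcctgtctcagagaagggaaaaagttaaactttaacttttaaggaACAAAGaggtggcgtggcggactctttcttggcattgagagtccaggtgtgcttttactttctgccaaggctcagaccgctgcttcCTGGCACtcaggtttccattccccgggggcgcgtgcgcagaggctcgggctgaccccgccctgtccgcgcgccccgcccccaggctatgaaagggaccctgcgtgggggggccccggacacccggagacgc
Opalin: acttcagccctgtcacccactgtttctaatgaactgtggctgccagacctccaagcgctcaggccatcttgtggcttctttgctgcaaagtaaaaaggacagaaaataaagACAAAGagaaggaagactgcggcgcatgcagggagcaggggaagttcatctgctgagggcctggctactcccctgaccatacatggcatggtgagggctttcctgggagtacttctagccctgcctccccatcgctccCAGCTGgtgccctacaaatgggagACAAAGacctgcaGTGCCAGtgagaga
The Mobp window held 6 copies of the Sox word, all on the other strand and all between 243 and 120 bases before the start, counted to the first base of each match, and none of the other words. The Cnp window held 1 CTGGCAC, 81 bases before the start, and 1 ACAAAG. The Opalin window held 1 CTGGCAC on the other strand, 2 ACAAAG and 1 CAGCTG. Among the members not shown, the windows of Mal, Cldn11 and Ugt8a held none of the 4 words, and that of Mog held only 1 CTGGTAC. For Mag, the overlapping windows 1 and 2 each held 1 CTGGCAC and 1 ACAAAG, and window 3 held none of the words. Over all 32851 such windows of the table, CTGGCAC was found in 5.01%, CTGGTAC in 2.24%, ACAAAG in 18.7% and CAGCTG in 16.3%, so that the Sox and E-box words are common and a match is a description of the letters only.

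Each library held between 23686945 and 33926904 counts (median 26490950), and levels are given as CPM after TMM scaling, with scaling factors between 0.979 and 1.03. At this depth the lowest count of any member in any library was 77, for Opalin in library 1, and Mbp had at least 10715 counts. Igf2, the check of the genotype labels, had 52.0, 71.3 and 107 CPM (lowest, median and highest) in WT and 88.4, 119 and 173 in KO frontal cortex, and 34.1, 37.1 and 44.0 in WT and 46.0, 51.8 and 258 in KO striatum. Its log2 fold change of KO over WT was 0.77 in cortex (SE 0.134, edgeR adjusted p = 0.0285) and 0.89 in striatum (SE 0.326, edgeR adjusted p = 0.386), where library 15 held the highest level. Marker sums show libraries that stand apart. Library 20 (WT male striatum) had the lowest summed level of 13 medium spiny neuron markers in striatum (6047 CPM against 8341 to 16038 in the other striatal libraries, and 508 to 561 in cortex) and the highest of 9 cortical projection neuron markers there (1249 CPM against 65.0 to 914, and 2264 to 2511 in cortex). Library 22 (WT male striatum) had the lowest sum of those cortical markers, 65.0 CPM. Library 15 (KO female striatum) had 3377 CPM of 10 choroid plexus markers against 29.9 to 152 in the other striatal libraries, and library 1 (KO female cortex) had the highest sum of 9 meningeal fibroblast markers of any library, 159 CPM. Libraries 1, 20 and 22 also carry the extreme myelin values described below. For the 9 genes, the fits for region, genotype and sex and the pair correlations are given with and without them. The fits of the other lists are given with them only. So are the levels, shares, ratios and principal components of the 9 genes. Most correlations with marker lists are also given without the 2 libraries farthest on each list.

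All 9 myelin genes were higher in striatum than in frontal cortex, and for each of them every one of the 15 striatal libraries lay above every one of the 12 cortical libraries. Mbp, the most abundant, had 428, 717 and 848 CPM (lowest, median and highest) in cortex and 1907, 2255 and 4288 in striatum. Mobp had 105, 194 and 255 CPM in cortex and 670, 793 and 1448 in striatum. Opalin, the least abundant, had 3.08, 8.20 and 10.1 CPM in cortex and 15.1, 22.3 and 44.2 in striatum. The lowest striatal library was thus 2.25 times the highest cortical library for Mbp, 2.62 times for Mobp and 1.49 times for Opalin. Summed over the 9 genes, myelin transcripts took 0.0765% to 0.157% of the counts of a cortical library (median 0.131%) and 0.362% to 0.800% of a striatal one (median 0.417%). In bulk tissue, fewer cells of a type and less RNA per cell cannot be told apart, so these levels describe the tissue piece and not the single oligodendrocyte.

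The difference between regions was estimated by edgeR's quasi-likelihood test on all 27 libraries, with Benjamini-Hochberg adjustment over 13414 genes, and 9 of 9 members were called higher in striatum at adjusted p under 0.05, where 39.4% of all genes tested were called higher. Complete separation of the regions in this direction was seen for 9 of 9 members and for 12.4% of all genes. The smallest change was that of Cnp, log2 fold change 1.57 (SE 0.102, edgeR adjusted p = 4.61e-13), or 2.96-fold. The largest was that of Mobp, 2.19 (SE 0.113, edgeR adjusted p = 6.56e-15), or 4.56-fold. Between them lay Opalin (1.58, SE 0.134), Ugt8a (1.63, SE 0.112), Mag (1.67, SE 0.119), Mal (1.78, SE 0.108), Cldn11 (1.79, SE 0.118), Mbp (1.81, SE 0.105) and Mog (1.83, SE 0.126), with edgeR adjusted p of at most 6.48e-11, that of Opalin. The 9 log2 fold changes had a median of 1.78, against 0.0088 over all genes tested. The median was 1.81 in WT libraries alone and 1.71 in KO libraries alone, with all 9 called by edgeR in each. Without libraries 1, 20 and 22 the median was 1.62, with a range from 1.38 for Opalin to 2.03 for Mobp, and all 9 were called.

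**Figure D1:**
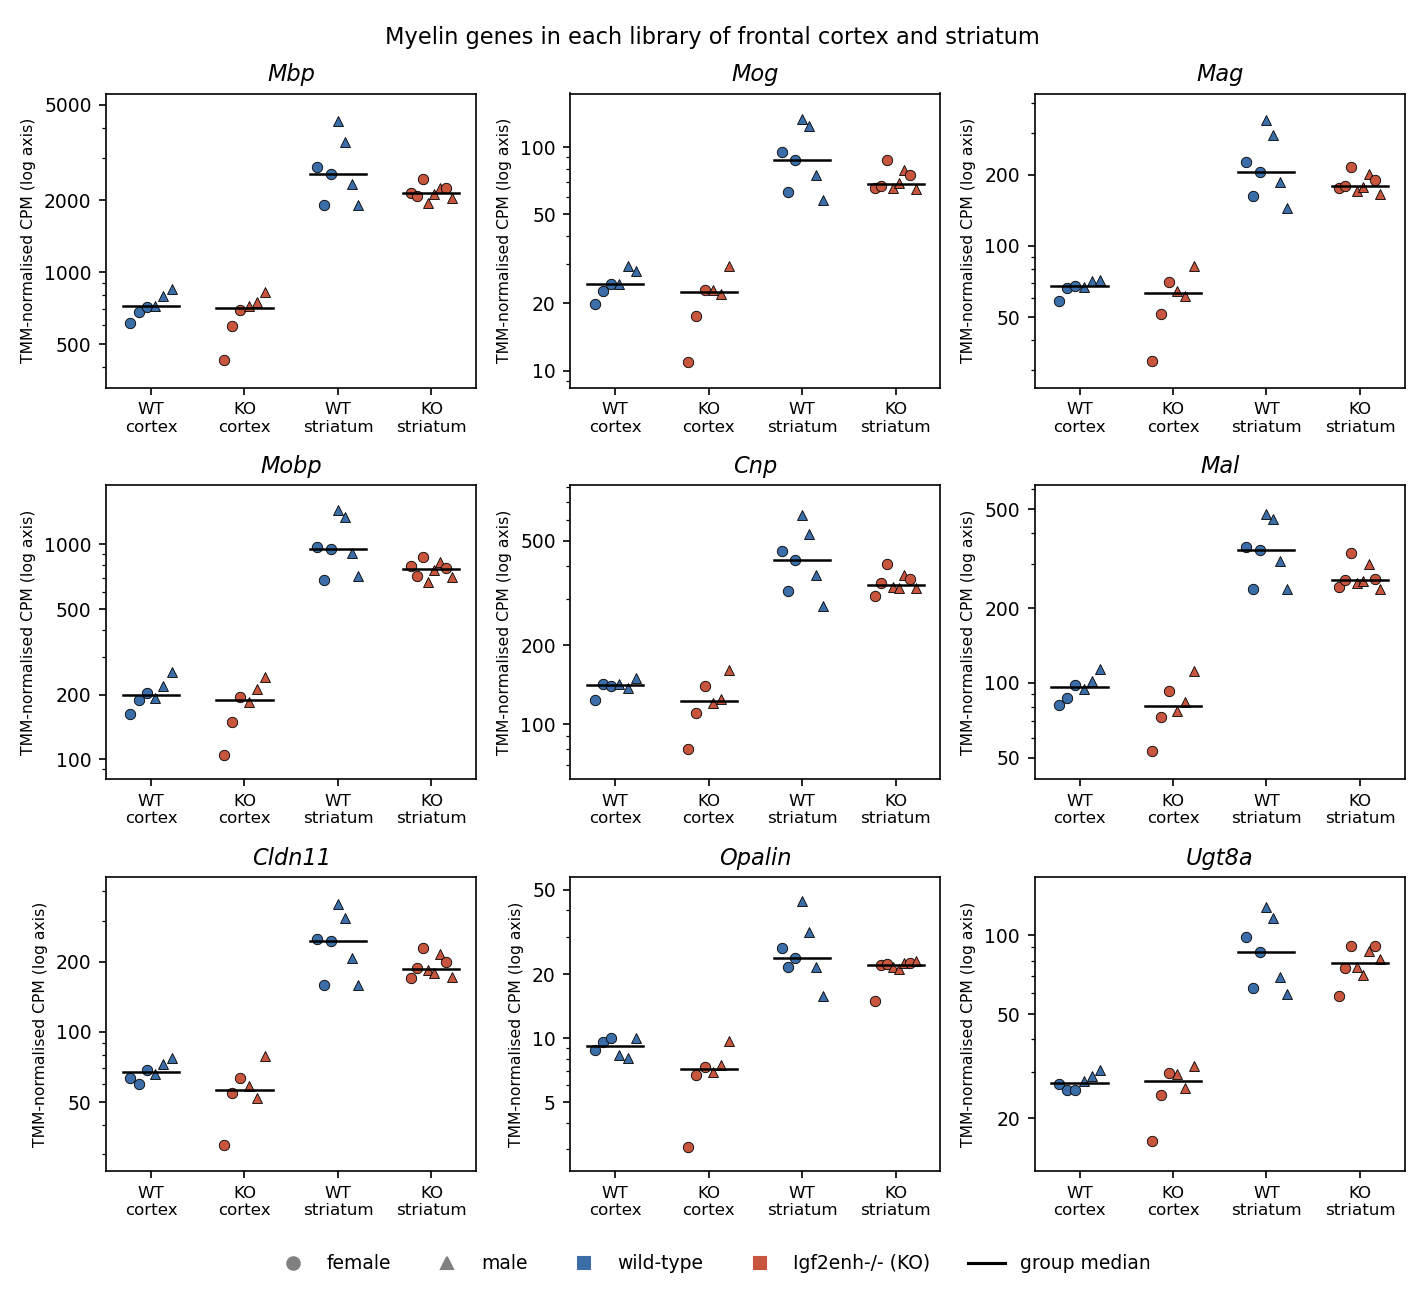
Each point is the TMM-normalised CPM of 1 library on a log axis, with 1 panel for each of the 9 genes, grouped by region and genotype; circles are females, triangles males and lines group medians. In every panel the 15 striatal points lie above the 12 cortical points, while WT and KO points overlap within each region.

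Most other genes of the mature oligodendrocyte were higher in striatum too. Over all genes tested, 39.4% were called higher and 38.2% lower, against which the list counts are to be read. Of 38 other mature oligodendrocyte genes, 35 were tested, of which 33 were higher and 1 lower in striatum (median log2 fold change 1.41), with Anln, a cytoskeletal protein known in myelin septin filaments, at 2.53, Ermn, a cytoskeletal protein of myelinating cells, at 1.88, and Hapln2, a link protein of the nodal matrix, at 1.89. Of 10 lineage transcription factors 8 were higher and 1 lower, among them Myrf (1.61) and Sox8 (0.92). Of 7 precursor genes 4 were higher, with a median of 0.14, from C1ql1 at 0.14 and Pdgfra, the growth factor receptor that defines precursors, at 0.15 (edgeR adjusted p = 0.0150) to Vcan, a matrix proteoglycan, at 0.80. Of 6 genes of the newly formed stage 5 were higher and 1 lower, from Enpp6 at 2.08 to Bmp4 at -0.54.

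Lipid synthesis and the axonal side of the node did not move as a block. Of 22 genes of myelin lipid synthesis 9 were higher and 7 lower (median 0.05), close to the shares over all genes. Those higher included Fa2h, which hydroxylates the fatty acids of myelin galactolipids (1.92), Cers2, a ceramide synthase for very long acyl chains (0.83), and Elovl1, an elongase (0.86). Of 12 genes of the axonal node and paranode 8 were higher, such as Ank3 (0.52) and Cntn2 (0.57), and 4 lower, such as Nrcam (-0.61). Markers of other cells also differed between the regions, with 12 of 12 medium spiny neuron markers tested higher, 6 of 6 cortical projection neuron markers lower, 8 of 12 microglial markers higher, 3 of 12 astrocyte markers higher and 4 lower, 1 of 10 endothelial markers higher, 1 of 10 general neuronal markers higher and 7 lower, the only choroid plexus marker tested, Kl, higher, and 7 of 7 meningeal markers lower (summed level of all 9 meningeal markers 61.2 to 159 CPM in cortex and 30.1 to 69.4 CPM in striatum). The astrocyte counts, like those of the lipid list, were no larger in total than the share of all genes called in either direction. The part of other cells in the myelin difference was not tested.

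Levels of different genes are compared per kilobase of summed exon length. In cortex, CPM per kilobase was 83.2 ± 13.6 for Mbp (SD, n = 12), 35.9 ± 5.79 for Cnp, 33.8 ± 6.77 for Cldn11, 32.0 ± 6.09 for Mal, 29.7 ± 6.23 for Mobp, 26.3 ± 5.11 for Mag, 13.5 ± 3.06 for Mog, 7.52 ± 1.12 for Ugt8a and 4.36 ± 1.07 for Opalin. In striatum it was 290 ± 78.1 for Mbp (SD, n = 15), 135 ± 35.6 for Mobp, 116 ± 30.3 for Cldn11, 109 ± 27.9 for Mal, 106 ± 25.3 for Cnp, 83.4 ± 21.3 for Mag, 47.4 ± 13.1 for Mog, 23.2 ± 5.55 for Ugt8a and 12.9 ± 3.72 for Opalin. Mbp stood first, and Mog, Ugt8a and Opalin last, in both regions. The neighbours from Cnp to Mag in cortex and from Mobp to Cnp in striatum differed by less than 1 SD of the higher gene. This SD is over libraries, in which the members varied together, so it does not measure the spread of a difference between genes of the same library. Mobp stood in the fifth place in cortex and in the second in striatum, and Cnp the other way round. The lengths come from an older annotation than the one used for counting (GENCODE vM1 and not vM15), and exons of Cnp overlap those of Dnajc7 on the opposite strand, so that the order of close neighbours depends on these lengths and, for Cnp, on how the overlap was counted.

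The mixture of myelin transcripts differed between the regions mainly in the parts taken by Mobp and Cnp. Of the summed CPM of the 9 genes, Mbp took 54.1% ± 1.40 in cortex (SD, n = 12) and 52.8% ± 0.833 in striatum (SD, n = 15). Mobp took 14.8% ± 0.751 in cortex, from 13.8% to 16.1% by library, and 19.0% ± 0.736 in striatum, from 18.0% to 20.3%. Cnp took 10.1% ± 0.618 in cortex (9.27% to 11.1%) and 8.42% ± 0.387 in striatum (7.73% to 8.91%). The regions did not overlap for Mobp or for Cnp, and the other 7 shares overlapped to some degree. Of the 36 ratios between 2 members, 6 separated the regions completely, and each of them was a ratio of Mobp, to Mbp, Mog, Mag, Cnp, Mal or Ugt8a. The log2 ratio of Mobp to Cnp ran from 0.39 to 0.77 in cortex and from 1.01 to 1.37 in striatum. Since a ratio within a library does not depend on its scaling, these values show unequal change between members, with Mobp set apart from the 6 named. The ratios of Mobp to Cldn11 and to Opalin overlapped between the regions. A ratio does not give the absolute change of either gene. The regional difference in Mobp was noticed in these data and is given with no test.

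Loss of the enhancer was not accompanied by a called change of any myelin gene in frontal cortex. By library, Mbp in WT cortex had 610, 681 and 716 CPM in females (libraries 2, 4 and 6) and 723, 795 and 848 in males (8, 10 and 12). In KO cortex it had 428, 597 and 695 CPM in females (1, 3 and 5) and 718, 750 and 823 in males (7, 9 and 11). The genotypes overlapped, and library 1 lay well below the others. Opalin had 8.78, 9.66 and 10.1 CPM in WT females, 8.34, 8.05 and 10.1 in WT males, 3.08, 6.71 and 7.36 in KO females and 6.90, 7.47 and 9.74 in KO males. Of the KO libraries only library 11, at 9.74 CPM, reached the WT range for Opalin, which began at 8.05 CPM.

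In edgeR's quasi-likelihood test with sex as a covariate, 0 of 9 members were called at adjusted p under 0.05 in frontal cortex, where 0.380% of 13936 genes tested were called, and the likelihood ratio test, DESeq2 and limma-voom called 0 as well. All 9 log2 fold changes of KO over WT were negative, with a median of -0.19 against 0.00074 over all genes. At unadjusted p under 0.05 there was 1 of 9, where 13.5% of all genes passed. This was Opalin, with a log2 fold change of -0.43 (SE 0.173, 95% interval -0.80 to -0.06, edgeR unadjusted p = 0.0269 and adjusted p = 0.298). The other values ran from -0.27 for Cldn11 (95% interval -0.55 to 0.01) to -0.08 for Ugt8a (-0.30 to 0.15). For Mbp the value was -0.14 (-0.33 to 0.06). No member had non-overlapping genotypes, against 1.31% of all genes. Leaving out 1 library moved these values both ways, with 0 members called by edgeR each time. Without library 1 the median was -0.10 and Ugt8a turned to 0.02, without library 5 the median was -0.27 with 7 of 9 at unadjusted p under 0.05, and without library 11 it was -0.27 with 5 of 9. With no filter on low counts edgeR called 3 members lower, Mal (-0.24, adjusted p = 0.0389), Cldn11 (-0.27, adjusted p = 0.0344) and Opalin (-0.43, adjusted p = 0.0220), in a fit that called 459 genes of 33060.

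Of the other oligodendrocyte lists in frontal cortex none held a called gene by edgeR. Of 35 other mature oligodendrocyte genes 21 had negative values (median -0.06) and 8 passed an unadjusted p under 0.05, in both directions, from Pdlim2 at -0.35 and Tspan2, a tetraspanin, at -0.33 to Hapln2 at 0.26. Library 1 had the lowest mean log2 CPM over the 38 matched genes of that list, 3.69. The other KO libraries ran from 4.05 to 4.28 and the WT libraries from 4.09 to 4.25, and the list was not refitted without library 1. Sox8, a transcription factor of the lineage, had -0.51 (SE 0.107, edgeR adjusted p = 0.0581). Medians were -0.03 for 10 lineage transcription factors, -0.10 for 7 precursor genes, -0.02 for 6 newly formed oligodendrocyte genes, 0.01 for 22 lipid synthesis genes and -0.05 for 12 nodal genes. Of 9 meningeal fibroblast markers 8 had positive values (median 0.38, 5 with unadjusted p under 0.05, 0 called). Their summed level was 61.2 to 144 CPM in WT and 92.0 to 159 CPM in KO, and their part in the myelin values was not tested.

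In striatum too, 0 of 9 members were called by edgeR's quasi-likelihood test, where 0.0360% of 13875 genes were called, nor by the likelihood ratio test, DESeq2 or limma-voom. Mbp had 2737, 1915 and 2560 CPM in WT females (libraries 14, 16 and 18) and 4288, 3510, 2327 and 1907 in WT males (20, 22, 24 and 26). In KO it had 2146, 2082, 2446 and 2256 CPM in females (13, 15, 17 and 25) and 1948, 2114, 2255 and 2031 in males (19, 21, 23 and 27). The KO libraries lay close together within the wider WT range. Mbp was 2749 ± 872 CPM in WT (SD, n = 7) and 2160 ± 156 in KO (SD, n = 8), and Mobp 1002 ± 290 and 765 ± 69.5. The highest Mobp levels were again those of libraries 20 (1448 CPM) and 22 (1333 CPM), and the KO libraries ran from 670 to 877.

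All 9 striatal log2 fold changes were negative, with a median of -0.31. An unadjusted p under 0.05 was found for 3 of 9 by edgeR, where 10.0% of all genes passed. These were Mobp (-0.37, SE 0.144, edgeR adjusted p = 0.417), Mal (-0.35, SE 0.146, edgeR adjusted p = 0.446) and Mbp (-0.33, SE 0.152, edgeR adjusted p = 0.489). The smallest change was -0.16 for Ugt8a (95% interval -0.51 to 0.19). No member had non-overlapping genotypes, against 0.231% of all genes. Without libraries 20 and 22, both WT males, the median was -0.07, Mag and Ugt8a turned to 0.02 and 0.09, and no member had an unadjusted p under 0.05. Leaving out library 20 alone gave a median of -0.20 and library 22 alone -0.25, each with 1 of 9 at unadjusted p under 0.05. Leaving out the WT libraries with the lowest myelin means gave the opposite shift, to -0.41 with 7 of 9 without library 16 and to -0.39 with 8 of 9 without library 26, and edgeR called 0 members in each of these refits. The other oligodendrocyte lists held no called gene by edgeR. Of 37 other mature genes 31 had negative values (median -0.13, with Pdlim2 at -0.55 and 4 at unadjusted p under 0.05). Libraries 20 and 22 had the highest mean log2 CPM over the 38 matched genes of that list in striatum, 6.00 and 5.79. The other WT libraries ran from 4.97 to 5.52 and the KO libraries from 5.23 to 5.39. Of 10 lineage factors 9 had negative values (median -0.12), among them Sox8 (-0.26, edgeR adjusted p = 0.153) and Zfp488 (-0.38). Libraries 20 and 22 were the highest for the lineage factors too, and no list was refitted without them. Precursor genes had a median of -0.09, newly formed genes -0.19, lipid synthesis genes -0.01 and nodal genes -0.01. All 6 cortical projection neuron markers tested were negative as well (median -0.32, 0 at unadjusted p under 0.05), with a summed level of 65.0 to 1249 CPM in WT and 186 to 914 CPM in KO, and their part was not tested.

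The genotype differences of the 2 regions were compared directly. For the members, the change in striatum minus that in cortex ran from -0.19 for Mbp (95% interval -0.60 to 0.23) to 0.13 for Opalin (-0.41 to 0.67) on the log2 scale, with a median of -0.10. In edgeR's quasi-likelihood test 0 of 9 were called, where 0% of 13414 genes were called, and 0 of 9 had an unadjusted p under 0.05, where 3.02% of genes did. DESeq2 and the other tools also called 0. Without libraries 1, 20 and 22 the median was 0.02. The intervals leave room for differences in either direction of the size of the genotype changes themselves.

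**Figure D2:**
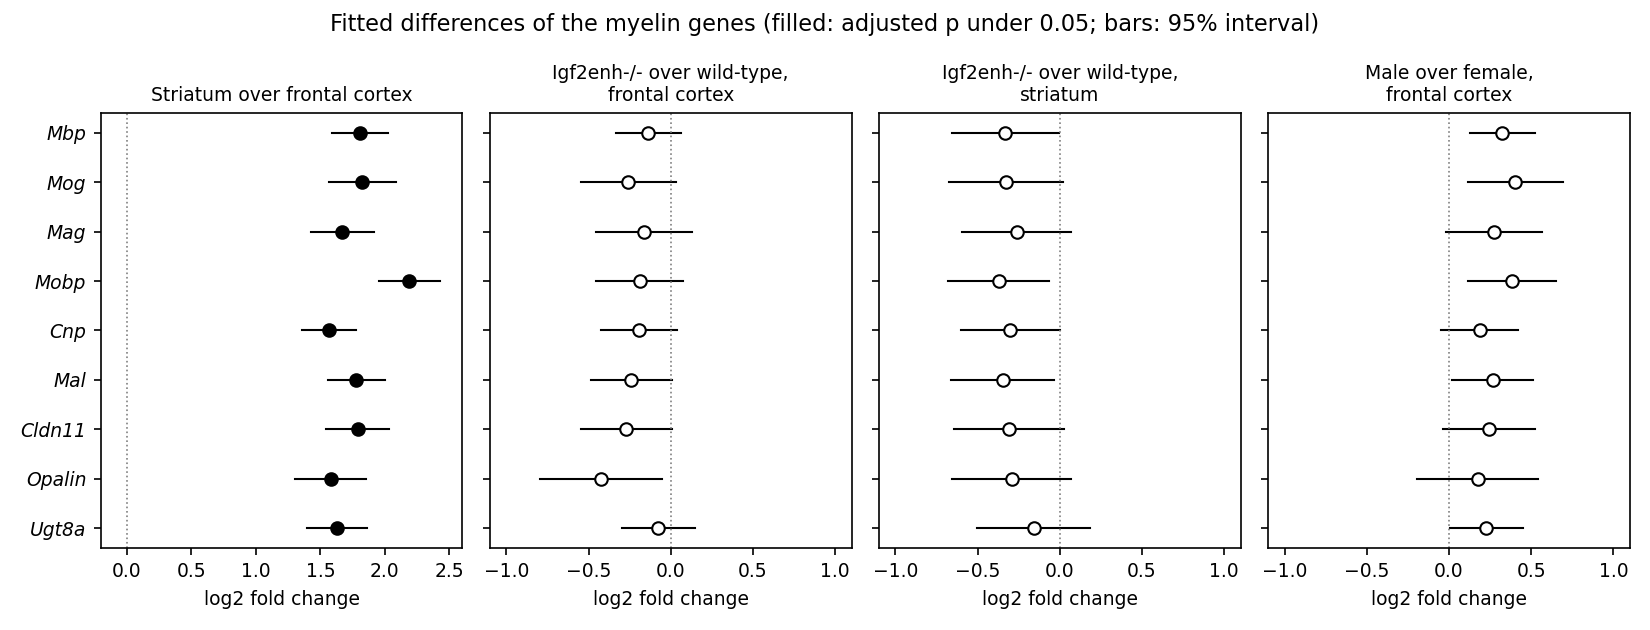
Points are log2 fold changes of the 9 genes and bars their 95% intervals, for striatum over cortex, KO over WT in each region, and males over females in cortex; filled points have an edgeR adjusted p under 0.05. All 9 regional values lie between 1.57 and 2.19 and are filled, while the genotype and sex values lie within 0.43 of 0 and are open.

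Sex entered each fit as a covariate. In frontal cortex all 9 log2 fold changes of males over females were positive, with a median of 0.27. By edgeR's quasi-likelihood test 0 of 9 were called, where 0.0431% of 13936 genes were called, and the likelihood ratio test, DESeq2 and limma-voom also called 0. At unadjusted p under 0.05 there were 5 of 9, where 7.56% of all genes passed. They were Mbp (0.33, SE 0.0924, edgeR adjusted p = 0.495), Mobp (0.38, SE 0.124), Mog (0.40, SE 0.135), Mal (0.27, SE 0.114) and Ugt8a (0.23, SE 0.103). Mbp was the only member whose sexes did not overlap, against 0.287% of all genes, and the gap was narrow, with 716 CPM in the highest female and 718 in the lowest male. With no filter on low counts edgeR called 4 members, Mbp, Mog, Mobp and Mal, in a fit that called 185 genes. Without library 1, a female, the median was 0.15 and 4 members had an unadjusted p under 0.05. All 9 meningeal markers had negative values (median -0.36, 7 with an unadjusted p under 0.05, 0 called), with a summed level of 85.7 to 159 CPM in females and 61.2 to 112 CPM in males. The RNA concentration given in the labels also separated the sexes in cortex, with 135 to 254 ng/ul in females and 258 to 514 ng/ul in males. Its r with the mean of the 9 genes, on log2 scales, was 0.632 over the 12 libraries (0.654 without the 2 libraries of most extreme RNA concentration). The part of either in the sex difference was not tested.

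In striatum 0 of 9 members were called for sex by edgeR, where 0.0432% of 13875 genes were called, and by DESeq2, and 0 of 9 had an unadjusted p under 0.05, where 10.8% of genes did. The values ran from 0.05 for Cnp to 0.16 for Opalin (median 0.08). Without libraries 20 and 22, both males, all 9 were negative, with a median of -0.14. Leaving out library 20 alone turned 6 of 9 negative (median -0.02), and leaving out library 16, a WT female, turned 4 of 9 negative (median 0.000695). All 13 medium spiny neuron markers had negative values (median -0.32, 1 at unadjusted p under 0.05), with a summed level of 11314 to 16038 CPM in females and 6047 to 15855 CPM in males. All 6 cortical projection neuron markers tested had positive values (median 0.63, 0 at unadjusted p under 0.05), with 76.9 to 849 CPM in females and 65.0 to 1249 CPM in males. The part of these cells was not tested. Whether the sex difference itself differed between the regions was not tested.

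Within a region the myelin genes varied together from library to library. In cortex library 1 was the lowest for 9 of 9 members, with a mean level 0.534 times that of the median library, and library 3, also a KO female, was next at 0.815 times. Libraries 11 (KO male) and 12 (WT male) were highest, at 1.21 and 1.18 times. In striatum library 20 was the highest for 9 of 9 members, at 1.77 times the median library, followed for the mean by library 22 at 1.54 and library 14 at 1.23 times, and library 26, a WT male like 20 and 22, was lowest at 0.791 times. The highest and the lowest mean thus came from WT males in striatum, and from KO mice (libraries 11 and 1) in cortex.

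**Figure D3:**
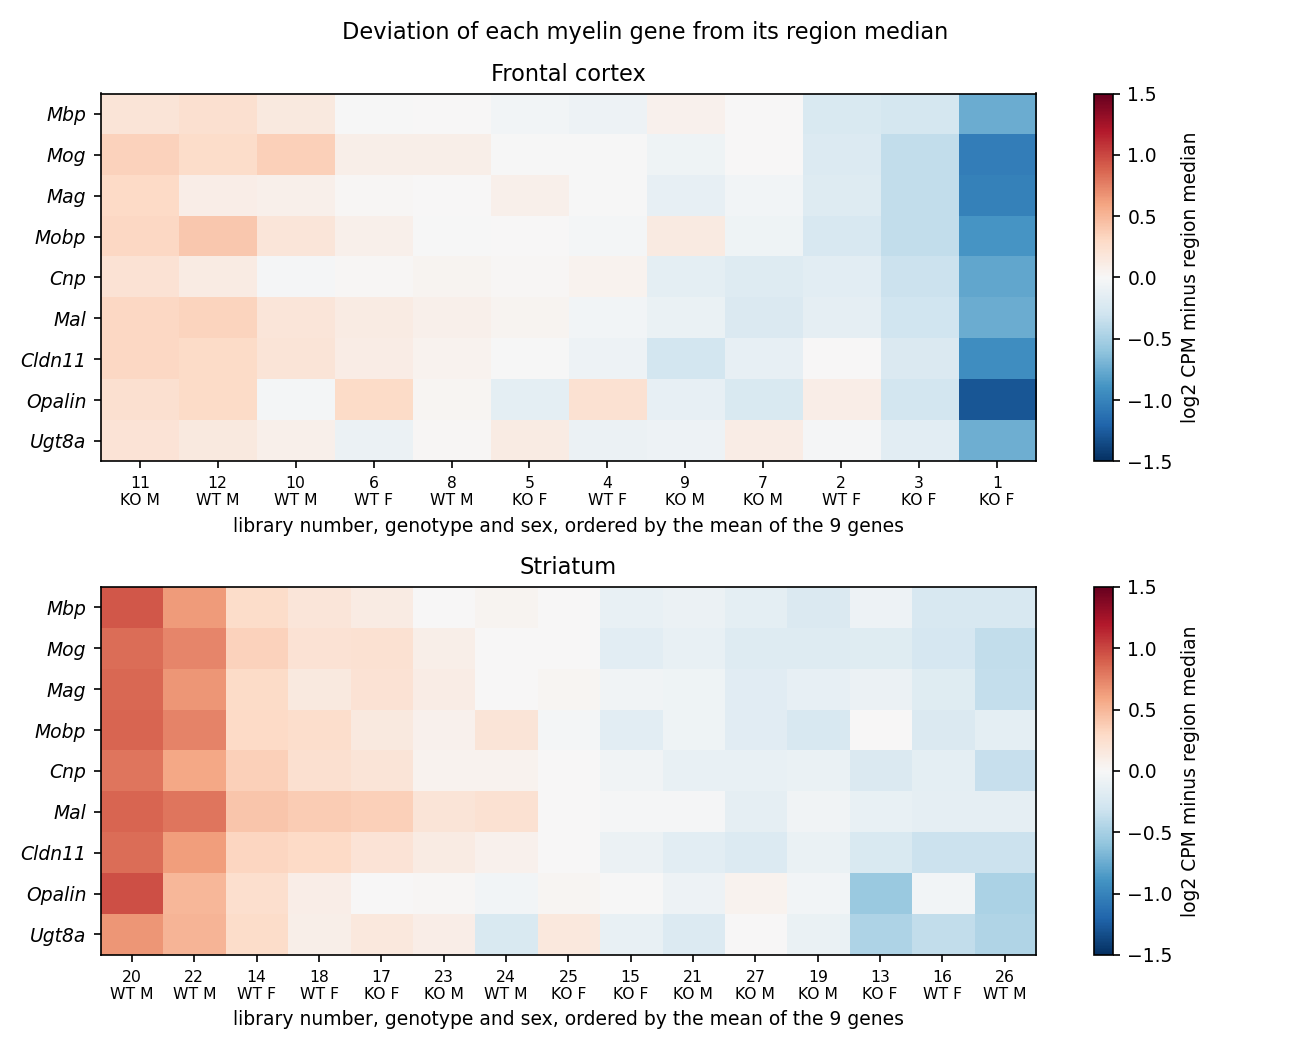
Colour gives the log2 CPM of each gene (rows) in each library (columns) minus the median of its region, from blue (below) to red (above), with libraries ordered by the mean of the 9 genes. Columns are nearly uniform in colour, with library 1 the bluest in cortex and libraries 20 and 22 the reddest in striatum.

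Correlations were computed for the 36 pairs of members over the 12 cortical and over the 15 striatal libraries, on log2(CPM + 0.5), never across regions. Pearson's r in cortex ran from 0.825 for Opalin and Ugt8a to 0.988 for Mbp and Mobp, with a median of 0.932, and Spearman's rho had a median of 0.801. In striatum r ran from 0.793 for Mobp and Opalin to 0.991 for Mog and Mag, with a median of 0.958, and rho had a median of 0.893. Over these 72 relations, permutation tests with 100000 resamples and Benjamini-Hochberg adjustment gave an adjusted p under 0.05 for Pearson's r in 36 of 36 pairs in each region. For Spearman's rho this held in 36 of 36 pairs in striatum and 33 of 36 in cortex, the exceptions being Opalin with Mbp, Opalin with Ugt8a, and Cnp with Ugt8a. The smallest p these permutations can give is 1e-05, reached by Pearson's r in 2 cortical and 26 striatal pairs.

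Part of this agreement rested on the extreme libraries, more so in cortex. Without the 2 libraries farthest from the median of the first gene of a pair, the median r was 0.708 in cortex, from 0.035 for Opalin and Ugt8a to 0.963. In striatum it was 0.878, from 0.364 to 0.979. Without library 1 the cortical median was 0.788, and without libraries 20 and 22 the striatal median was 0.876. After genotype and sex means were removed it was 0.931 in cortex and 0.961 in striatum. With all other genes tested, by contrast, r had a median near 0, as for Mbp in cortex with a median of 0.0049 and 5th and 95th percentiles of -0.64 and 0.66 over 13927 genes. The first principal component of the 9 genes held 92.9% of their variance in cortex and 94.0% in striatum. The log2 ratio of 2 members varied over libraries with a median SD of 0.133 in cortex and 0.0968 in striatum, less than the SD of any single member, which was at least 0.24 in cortex and 0.31 in striatum. Single ratios varied more, up to 0.295 for Opalin to Ugt8a in cortex, above the SD of Ugt8a there (0.244). In striatum the largest was 0.227, for Mobp to Opalin.

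**Figure D4:**
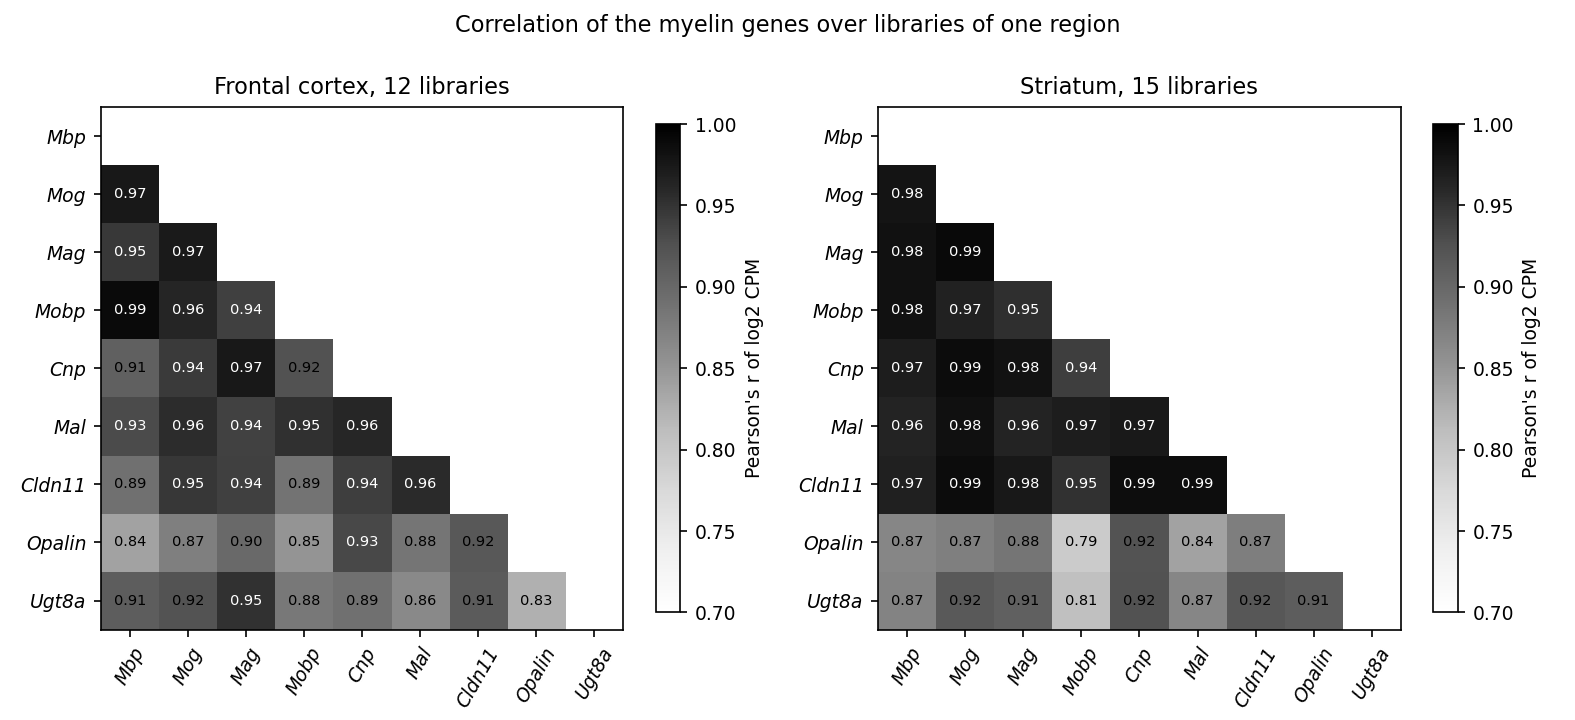
Each cell gives Pearson's r of log2 CPM between 2 of the 9 genes over the libraries of 1 region, with darker grey for higher r. Rows and columns of Opalin and Ugt8a are the lightest in both regions, with a lowest r of 0.825 in cortex and 0.793 in striatum.

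Opalin and Ugt8a followed the group least closely. Against the mean of the other 8, r was 0.904 in cortex and 0.889 in striatum for Opalin, and 0.923 and 0.913 for Ugt8a, while for the remaining 7 it ran from 0.954 to 0.980 in cortex and from 0.947 to 0.994 in striatum. Opalin also had the fewest counts of the 9 genes, so its counting error was the largest. Of 13405 other genes tested in both regions, those most like the mean of the 9, by the smaller of their r in cortex and striatum, included Fa2h (0.970 and 0.981), Tspan2 (0.940 and 0.960), Tmem88b (0.926 and 0.956) and Qdpr (0.925 and 0.949). Prr18, Tmem63a, Bcas1, Pllp and Sept4 were also among the first 10, with the smaller r between 0.911 and 0.925. Fa2h was in the lipid list, Prr18 and Tmem63a were in no list, and the other genes named were in the list of other mature oligodendrocyte genes. Their regional log2 fold changes ran from 0.52 for Sept4 to 1.92 for Fa2h, all positive.

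The mean of the 9 genes over libraries was set beside the means of marker lists, as a description without tests, since the points share a library, its dissection and its scaling. In striatum r was 0.951 with the other mature oligodendrocyte genes, 0.921 with the lineage transcription factors, 0.848 with the newly formed genes, 0.788 with the lipid genes and 0.764 with the precursor genes. In cortex the first 2 of these values were 0.923 and 0.878, and r was 0.092 with the precursor genes. Leaving out library 1 lowered the cortical value for the other mature genes to 0.675, and leaving out library 20 lowered the striatal one to 0.913. The cortical values were 0.617 with the lipid genes and 0.433 with the newly formed genes. Each value was also computed without the 2 libraries farthest from the median of the marker list, a pair chosen for each list. The striatal values were then 0.829 for the other mature genes, 0.761 for the transcription factors and 0.694 for the newly formed genes. They were 0.382 for the lipid genes and 0.257 for the precursor genes, so these 2 rested largely on the libraries most extreme for those lists. In cortex they were 0.542, 0.609 and 0.558 for the first 3, 0.194 for the lipid genes and -0.030 for the precursor genes.

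Markers of other cells were set beside the myelin genes in the same way. In cortex r was 0.847 with general neuronal markers, or 0.315 without library 1, 0.664 with cortical projection neuron markers, and -0.768 with meningeal fibroblast markers, or -0.674 without library 1. Library 1 thus had the fewest myelin transcripts, the lowest neuronal sum (9068 CPM) and the most meningeal ones (159 CPM). In striatum r was 0.110 with general neuronal markers, -0.210 with medium spiny neuron markers, -0.155 with cortical projection neuron markers and -0.212 with meningeal markers. The first 3 of these changed sign without the 2 libraries farthest from the median of each list, to -0.555, 0.428 and 0.424. The general neuronal value was -0.398 without library 20 alone, so no direction is read from these 3. For glia and vessels the striatal r was 0.604 with astrocyte, 0.607 with endothelial and 0.589 with microglial markers. Without the 2 libraries farthest on each list it was 0.270, 0.588 and 0.556. The cortical r was -0.603, -0.418 and -0.226, and -0.330, -0.313 and -0.406 without the 2 farthest on each list. The libraries with the most myelin, 20 and 22, lay at opposite ends of the striatal libraries for cortical markers (1249 and 65.0 CPM), and had 6047 and 15855 CPM of medium spiny neuron markers. The total count had an r of 0.301 with the myelin mean in cortex and -0.158 in striatum, and the RNA concentration 0.632 and -0.447. Without the 2 libraries farthest on each measure, r was 0.167 and 0.036 for the total count and 0.654 and -0.202 for the RNA concentration. Library 22 had the lowest RNA concentration of any library, 61.2 ng/ul. How much white matter each piece of tissue held is not recorded in the labels, and its part in these values was not tested.

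**Figure D5:**
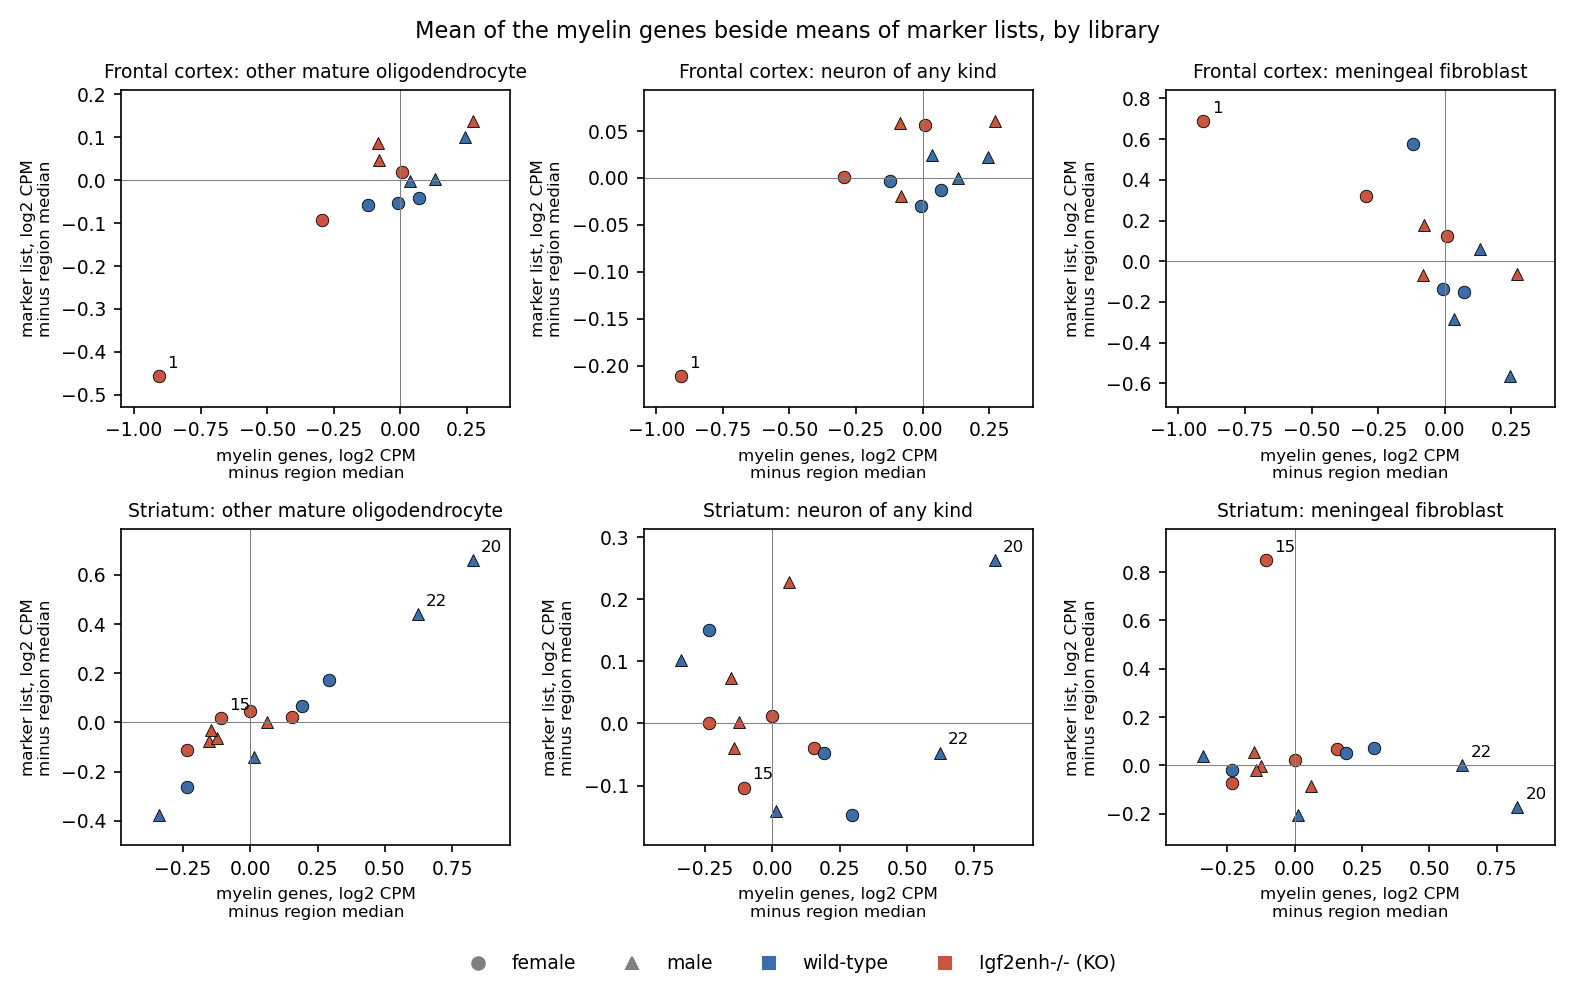
Each point is a library, at its mean log2 CPM of the 9 myelin genes (horizontal) and of a marker list (vertical), both minus the median of the region; the lists are other mature oligodendrocyte, general neuronal and meningeal fibroblast genes, blue is WT, red KO, circles females and triangles males. Library 1 lies far left in cortex and high for meningeal markers, and libraries 20 and 22 far right in striatum.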

How the data were processed

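Total RNA of about 25 mg of tissue was made into ribosome-depleted libraries (KAPA RNA HyperPrep with RiboErase) from 500 ng and read as single ends of 75 bases over 3 flow cells. After quality trimming (Trim Galore 0.5.0) and alignment to GRCm38 by STAR, the authors deposited 1 table of raw counts per region, by gene of GENCODE vM15. Whether reads were counted by strand is not given in the sources used here. Symbols and exon lengths came from GENCODE vM1 (32688 of 52636 identifiers matched).

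The 27 libraries were grouped by the genotype, sex and region in their labels. The sample labels give 13 WT and 14 KO libraries and the series text the reverse, and the labels were followed. Counts were scaled by TMM, genes were kept if no library of the fit was under 1 CPM, the filter of the study's methods, and edgeR 4.0.16 (glmQLFit and glmQLFTest, R 4.3.3) fitted genotype and sex within each region, and the 4 groups and sex over all 27 libraries. Calls are at a Benjamini-Hochberg adjusted p under 0.05 over all genes of the fit. Libraries entered as independent samples, because the labels do not tie cortex and striatum of a mouse, and the region fit therefore ignores any shared animal. No pair of libraries agreed within sampling noise. The fits were tested on simulated data. Alternatives were the likelihood ratio test that the study's methods name, DESeq2 1.42.0, limma-voom (limma 3.58.1), other scalings and filters, no sex term, and 54 refits leaving out 1 library. Correlations used log2(CPM + 0.5) and scipy 1.17.1.

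The 9 genes, the 14 other gene lists (180 of 184 symbols matched) and the tests were chosen with earlier results of these data known, so counts over a list are descriptions. All 9 genes are named in every comparison, with up to 4 genes of smallest p from another list, the 10 genes most like the mean of the 9, and Igf2. Genes that this rule names but the text does not are not reported here. Promoter windows matched 8 members other than Mbp, whose sequence was not used here.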

Additional observations from a re-analysis of the deposited data

Results flagged for a closer look

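Dixon's test on log2 CPM was applied to the 9 genes and Igf2 in the 4 groups of region and genotype, 40 tests in all, of which chance flags about 1 in 20, and 3 stood out. Opalin was at 3.08 CPM in library 1 (KO female cortex), where the next lowest KO library had 6.71 CPM and the gap took 0.677 of the range of the group. Opalin was at 15.1 CPM in library 13 (KO female striatum), where the next lowest had 21.1 CPM (0.778 of the range). The other 8 members were not set apart in these libraries by this test, although library 1 was the lowest for all 9. Igf2 was at 258 CPM in library 15 (KO female striatum), against 61.6 CPM in the next highest KO library (0.830 of the range), and the same library had 3377 CPM of choroid plexus markers. Its part in the Igf2 value was not tested. The mean of the myelin genes in library 15 was 0.928 times that of the median striatal library.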

How the results depend on the processing

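The regional difference kept its direction and its call for all 9 genes under each alternative run, including each refit without 1 library. Scaling by total count gave 5698 genes higher and 4703 lower in place of 5279 and 5118, and a median of the 9 genes of 1.81. The counts of all genes called for genotype depended on the tool. In cortex 53 genes were called, against 232 by the likelihood ratio test, 238 by DESeq2, 459 with no filter, and 8 to 99 without 1 library (8 without library 10, 99 without library 1). In striatum 5 were called, against 56, 110, 3 by limma-voom, 13 with filterByExpr, 10 with no filter, 3 without the sex term and 3 to 8 without 1 library. For sex, 6 were called in cortex (28, 21, 13 and 185 by the likelihood ratio test, DESeq2, filterByExpr and no filter) and 6 in striatum (12, 16, 12 and 14). The cause was not tested. Members called changed only with no filter, to 3 for genotype and 4 for sex in cortex. Ugt8a for genotype in cortex ranged from -0.15 to 0.020 without 1 library and turned positive only without library 1. Without libraries 20 and 22, chosen after seeing the data, Mag (0.015) and Ugt8a (0.091) reversed in striatum, and the median moved to -0.07 for genotype and -0.14 for sex. Without libraries 1, 20 and 22 the regional median was 1.62. The median correlation was 0.801 (cortex) and 0.893 (striatum) by Spearman's rho, 0.788 to 0.950 in cortex without 1 library, and 0.876 in striatum without libraries 20 and 22. No paired analysis of the regions was possible because the labels do not tie cortex and striatum of a mouse. Depth limits Opalin most, with as few as 77 counts in a library.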
